A study of Mus musculus with 6 samples.

Results

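The mRNAs of 10 genes of eicosanoid synthesis were measured in dendritic cells (DCs) grown from bone marrow (BMDCs) of WT and Nfkb2-/- mice. The genes were a list of named enzymes of prostaglandin and leukotriene synthesis, Pla2g4a, Ptgs1, Ptgs2, Ptges, Hpgds, Alox5, Alox5ap, Alox15, Lta4h and Ltc4s. All 10 were found by gene name among the 52073 named genes of the count files, and all 10 were among the 21849 genes that reached 50 counts in the 6 libraries together and were tested. The series holds 3 RNA-seq libraries per genotype, each from polyadenylated RNA of a C57BL/6 bone marrow culture that received no stimulus. The Nfkb2-/- mice lacked Nfkb2 in all tissues, so that every cell type of the culture carried the deletion. Both genotypes were cultured for 9 days, in GM-CSF (20 ng/mL) alone for 5 days and in GM-CSF with IL-4 (10 ng/mL) for 4 days, without a sort before RNA isolation in the labels. The comparison asks how loss of Nfkb2, the gene of the noncanonical NF-κB subunit p100/p52, altered the basal expression of these enzymes.

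Eicosanoids are lipid mediators made from arachidonic acid. The cytosolic phospholipase encoded by Pla2g4a releases arachidonic acid from membranes, and the cyclooxygenases encoded by Ptgs1 and Ptgs2 turn it into the precursor of all prostaglandins and thromboxane. Terminal synthases then make single products, prostaglandin E by Ptges and prostaglandin D by Hpgds. On the other branch the arachidonate lipoxygenase encoded by Alox5, with its partner protein FLAP encoded by Alox5ap, makes the unstable leukotriene A, which Lta4h converts into the chemoattractant leukotriene B and Ltc4s into the cysteinyl leukotrienes. Alox15 encodes a further lipoxygenase, a known target of IL-4 in myeloid cells, whose products include precursors of lipoxins. DCs and macrophages both express members of this pathway, and mast cells, eosinophils and neutrophils are further known sources of eicosanoids.

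The largest difference of the 10 genes between the genotypes was that of Alox15, at a mean of 4.07 ± 4.48 CPM in WT and 40.2 ± 5.67 CPM in Nfkb2-/- BMDCs (SD, n = 3 each; CPM, counts scaled to a common library size with TMM). Alox5, Lta4h and Ptgs1 had higher values in each Nfkb2-/- library than in any WT library, and Ltc4s had lower ones. Hpgds had a lower mean in Nfkb2-/- BMDCs, with 1 WT library inside the Nfkb2-/- range. The other 4 genes, Pla2g4a, Ptgs2, Ptges and Alox5ap, overlapped between the genotypes. With edgeR's quasi-likelihood test and Benjamini-Hochberg adjustment over all genes, a call required an adjusted p under 0.05 and a fold change over 1.2. None of the 10 genes was called, beside 1.14% of all genes tested (0.453% higher and 0.682% lower in Nfkb2-/-). At an unadjusted p under 0.05 there were 3 members higher and 2 lower, where 17.1% of all genes passed. DESeq2, the tool of the study's methods, called 4 of the 10, Alox15, Alox5 and Lta4h as higher and Hpgds as lower, beside 10.7% of the genes to which it gave an adjusted p (5.40% higher and 5.33% lower). The limma voom test called 1, Alox15, beside 2.23% of all genes, and edgeR without a filter on low counts called 5, beside 3.50%. The genotypes did not overlap for 5 of the 10 members, 4 higher and 1 lower, beside 24.7% of all genes (12.7% higher and 12.0% lower). The median log2 fold change (Nfkb2-/- over WT) was 0.65 over the 10 members and 0.08 over all genes tested. The WT side of the members' median includes WT replicate 3, the lowest of the 6 libraries for 7 of the 10 members.

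**Figure D1:**
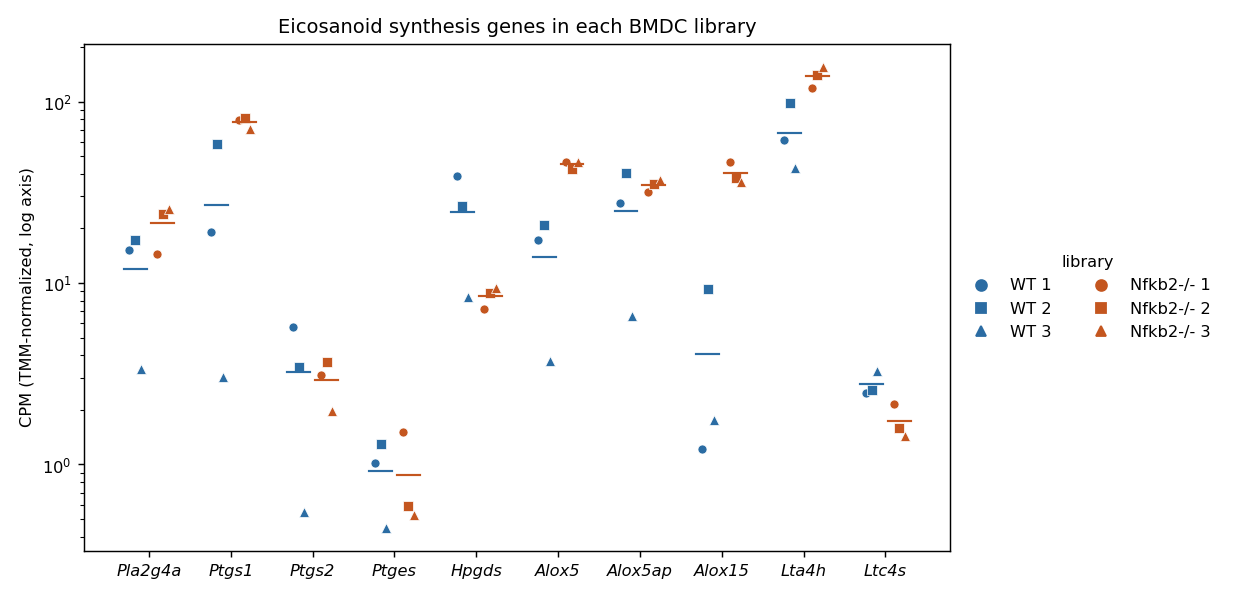
TMM-normalized CPM on a log axis for each of the 10 genes, with WT libraries in blue, Nfkb2-/- libraries in orange, the marker shape giving the replicate and the short line the mean of 3 libraries. The Nfkb2-/- points lie close together for most genes, and WT replicate 3 is the lowest point of all 6 for 7 of the 10 genes.

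Depth ranged from 29863927 to 55623068 counts per library, and 3 counts corresponded to 0.0561 to 0.103 CPM. Nfkb2 itself, measured as a check of the labels, was at 215, 154 and 355 CPM in the WT libraries and at 44.8, 32.3 and 32.6 CPM in the Nfkb2-/- libraries, a log2 fold change of -2.72 (SE 0.33, edgeR adjusted p = 0.0307). The exons still read in the knockout were not resolved by these gene counts. Nfkb2 also shares 531 exonic bases with AC114539.1 and 299 with Psd, both on the opposite strand. Those genes had 202 to 433 and 137 to 1109 counts per library, where Nfkb2 had 981 to 1745 in the Nfkb2-/- libraries. Their reads may not have been told apart from those of Nfkb2. A pair of libraries stood apart from the rest. Nfkb2-/- replicate 1 had counts on 47952 gene IDs, named or not, where the others had counts on 27692 to 33841, and it lay alone on the first principal component. WT replicate 3 was the extreme library of the second component and bears directly on the eicosanoid genes. The fold change of each member is given with and without it below. Of the DC markers, Itgax (CD11c) was at 123 to 769 CPM and the class II gene H2-Ab1 at 696 to 1139 CPM in the 6 libraries. Others of that list were lower, with Flt3 at 12.1 to 17.0 CPM and Cd209a at 3.51 to 26.9 CPM. The study describes 3 independent biological replicates per genotype, and the labels do not name the animals behind them. In bulk RNA, fewer cells of a type and less RNA per cell cannot be told apart.

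The sequence before the transcription start is shown for the members that were higher in each Nfkb2-/- library and have an entry in the RefSeq promoter table (GRCm38.p6). Each is the 250 bases before the start, read 5′ to 3′ on the strand of the gene, at chr6:116461179-116461428 (minus strand) for Alox5, chr10:93453146-93453395 (plus strand) for Lta4h and chr2:36230176-36230425 (plus strand) for Ptgs1. Capitals mark matches to a loose κB motif, GGGNNNNNCC on either strand, or to a STAT6 motif, TTCNNNNGAA, where N is any base.
Alox5: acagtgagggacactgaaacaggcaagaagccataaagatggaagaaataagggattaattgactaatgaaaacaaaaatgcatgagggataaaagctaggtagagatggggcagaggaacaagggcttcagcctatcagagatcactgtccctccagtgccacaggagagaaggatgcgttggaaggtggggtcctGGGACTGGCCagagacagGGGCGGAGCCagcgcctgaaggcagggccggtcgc
Lta4h: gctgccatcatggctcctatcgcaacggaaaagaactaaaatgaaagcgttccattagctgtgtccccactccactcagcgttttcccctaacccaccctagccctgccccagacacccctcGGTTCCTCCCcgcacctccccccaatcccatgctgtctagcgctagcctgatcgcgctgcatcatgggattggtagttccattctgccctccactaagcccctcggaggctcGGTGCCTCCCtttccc
Ptgs1: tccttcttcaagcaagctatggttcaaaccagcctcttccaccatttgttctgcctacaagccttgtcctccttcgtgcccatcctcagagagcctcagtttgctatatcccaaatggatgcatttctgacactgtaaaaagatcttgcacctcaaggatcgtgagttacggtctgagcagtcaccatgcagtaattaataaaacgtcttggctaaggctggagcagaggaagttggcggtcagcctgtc
Alox5 and Lta4h each held 2 κB matches and Ptgs1 held none, and none of the 3 held the STAT6 motif. Of the 10 members 8 had an entry, and 4 of these 8 held a κB match (Alox5, Lta4h, Ptges and Ptgs2), where 45.8% of 32817 promoter windows of the same length did. The STAT6 motif was found in 1 of the 8, Ptges, against 5.85% of all windows. No member held the AP-1 motif TGANTCA, found in 6.75% of windows. The CCAAT box, CCAAT, was found in 1 of the 8, Lta4h, and in 33.8% of all windows. The GC box GGGCGG was present in 3 of the 8 members, Alox5, Ptges and Ptgs2, and in 32.7% of all windows. In Alox5 1 κB match and the GC box share letters. These matches describe the letters in a window and no binding was measured here.

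At the head of the pathway, Pla2g4a (chromosome 1, 149829618 to 149961290, GRCm38) was at 15.3, 17.3 and 3.34 CPM in WT replicates 1, 2 and 3 and at 14.4, 24.0 and 25.5 CPM in the Nfkb2-/- libraries. The lowest Nfkb2-/- library lay within the WT range, and WT replicate 3 stood below the other 5. Its log2 fold change was 0.83 (SE 0.55, 95% interval -0.46 to 2.12, edgeR adjusted p = 0.492), and 0.39 without WT replicate 3 (adjusted p = 0.553). The interval includes both no difference and an increase of 2 on the log2 scale.

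The constitutive cyclooxygenase gene Ptgs1 (chromosome 2, 36230426 to 36252272) was at 19.1, 58.6 and 3.03 CPM in WT and at 79.0, 81.3 and 71.0 CPM in Nfkb2-/- BMDCs. The Nfkb2-/- libraries agreed within 1.15-fold, whereas the highest and lowest WT libraries differed 19.3-fold. The genotypes did not overlap, with an exact permutation p of 0.1, the smallest that 3 against 3 libraries can give. The log2 fold change was 1.52 (SE 0.83, 95% interval -0.42 to 3.46) and did not pass edgeR's test (adjusted p = 0.410). It was 0.997 without WT replicate 3 (adjusted p = 0.330) and 2.79 without WT replicate 2 (adjusted p = 0.0861). Ptgs1 shares 148 exonic bases with Gm43621, a gene model on the opposite strand with 4 to 194 counts per library. The strand setting of the counting is not given in the sources used here, so that reads of overlapping genes on opposite strands may not have been told apart.

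The inducible cyclooxygenase gene Ptgs2 (chromosome 1, 150100031 to 150108227) was low in these unstimulated cells, at 5.69, 3.45 and 0.551 CPM in WT and 3.13, 3.66 and 1.98 CPM in Nfkb2-/- BMDCs. The Nfkb2-/- values all lay within the WT range. Its log2 fold change of -0.16 (SE 0.69, 95% interval -1.78 to 1.47, edgeR adjusted p = 0.931) changed sign with the choice of test and library. It was -0.65 without WT replicate 3 (adjusted p = 0.447). The ratio of Ptgs1 to Ptgs2, each per kilobase of exon, was 3.95, 20.0 and 6.49 in WT and 29.8, 26.2 and 42.2 in Nfkb2-/- libraries. The Ptgs1 message exceeded that of Ptgs2 in all 6 libraries, and by more in each Nfkb2-/- library than in any WT library.

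Ptges (chromosome 2, 30889471 to 30929863), which makes prostaglandin E, was close to the limit of these data at 1.02, 1.29 and 0.447 CPM in WT and 1.51, 0.593 and 0.524 CPM in Nfkb2-/- BMDCs, or 13 to 51 counts per library. The genotypes overlapped, and the log2 fold change was -0.08 (SE 0.62, 95% interval -1.54 to 1.38, edgeR adjusted p = 0.962), and -0.40 without WT replicate 3 (adjusted p = 0.806). The interval extends past 1 on the log2 scale in both directions.

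Hpgds (chromosome 6, 65117293 to 65144908), the hematopoietic synthase of prostaglandin D, went the other way from Ptgs1. It was at 39.0, 26.7 and 8.36 CPM in WT and at 7.15, 8.87 and 9.35 CPM in Nfkb2-/- BMDCs. WT replicates 1 and 2 stood above all other libraries, and WT replicate 3 lay inside the Nfkb2-/- range. The mean was 2.92-fold lower in Nfkb2-/- BMDCs (SD, n = 3: 24.7 ± 15.4 and 8.46 ± 1.16 CPM). On the log2 scale the fold change was -1.54 (SE 0.49, 95% interval -2.70 to -0.39), with an edgeR adjusted p of 0.177 and a DESeq2 adjusted p of 0.0222. Without WT replicate 3 it was -1.95 (SE 0.22) and Hpgds was called lower (edgeR adjusted p = 0.0277), in a fit that called 1.27% of all genes. Hpgds is also known from mast cells and macrophages. The summed level of 11 mast cell and basophil markers was 47.6 to 57.7 CPM in WT and 53.3 to 58.3 CPM in Nfkb2-/-, of which Kit alone made up 37.2 to 50.5 CPM. In that list Cpa3, a mast cell protease gene, fell by 1.84 on the log2 scale (edgeR adjusted p = 0.0413), from 6.31 to 10.8 CPM in WT to 1.86 to 2.49 CPM in Nfkb2-/- libraries. Without overlap between the genotypes, 3 of the 11 were lower in Nfkb2-/- (Cpa3, Ms4a2 and Mcpt8) and 2 were higher (Gata2 and Hdc), beside 12.0% and 12.7% of all genes. Some of these were close to the limit of the data. Mcpt8 had 0 to 31 counts per library, and Hdc was at or below 0.824 CPM outside Nfkb2-/- replicate 1 (2.39 CPM). The transcription factor gene Gata2 was at 0.688 to 1.91 CPM in WT and 3.22 to 4.05 CPM in Nfkb2-/- (log2 fold change 1.47, edgeR adjusted p = 0.119). The mast cell tryptase gene Tpsab1 had no counts outside Nfkb2-/- replicate 1, and the IgE receptor gene Fcer1a was at or below 0.308 CPM in each library. The part of such cells in the Hpgds values was not tested.

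On the lipoxygenase branch, Alox5 (chromosome 6, 116410077 to 116461178), the gene of the enzyme that starts leukotriene synthesis, was at 17.4, 20.9 and 3.72 CPM in WT and at 46.7, 42.7 and 46.7 CPM in Nfkb2-/- BMDCs. The genotypes did not overlap (exact permutation p = 0.1), and the Nfkb2-/- libraries were within 1.09-fold of each other. This gave a log2 fold change of 1.69 (SE 0.54, 95% interval 0.43 to 2.96), with an edgeR adjusted p of 0.176 and a DESeq2 adjusted p of 0.0181. Leaving out WT replicate 3 lowered the estimate to 1.25 and its SE to 0.16, and Alox5 was then called higher (edgeR adjusted p = 0.0350). That fit called 1.27% of all genes. A smaller difference was thus called once the library farthest from the other WT libraries was removed.

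Alox5ap (chromosome 5, 149264767 to 149288153) did not show the same pattern as its partner. It was at 27.7, 40.2 and 6.57 CPM in WT and at 31.6, 35.1 and 37.2 CPM in Nfkb2-/- BMDCs, and all Nfkb2-/- libraries lay within the WT range. The log2 fold change was 0.48 (SE 0.54, 95% interval -0.79 to 1.75, edgeR adjusted p = 0.688), and 0.03 without WT replicate 3 (adjusted p = 0.954). The ratio of Alox5ap to Alox5 per kilobase was 4.61, 5.55 and 5.11 in WT and 1.96, 2.38 and 2.31 in Nfkb2-/- libraries. It held within a narrow range in all 3 WT libraries, WT replicate 3 included, in which both mRNAs were low, and was below that range in all 3 Nfkb2-/- libraries. An antisense gene model, Gm19719, shares 189 exonic bases with Alox5ap and had 22 to 190 counts per library, against 191 to 1988 for Alox5ap.

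Alox15 (chromosome 11, 70344152 to 70352031) was at 1.21, 9.23 and 1.76 CPM in WT and at 46.6, 38.0 and 36.0 CPM in Nfkb2-/- BMDCs. In counts, the libraries held 51, 300 and 51 in WT and 1579, 1154 and 1922 in Nfkb2-/-. WT replicate 2 was the high WT library, and still lay below each Nfkb2-/- library (exact permutation p = 0.1). The mean was 9.89-fold higher in Nfkb2-/- BMDCs, and 7.70-fold higher without WT replicate 3. The log2 fold change was 3.31 (SE 0.74, 95% interval 1.58 to 5.04). The adjusted p was 0.0877 with edgeR, 2.535e-05 with DESeq2 and 0.0238 with limma voom. Without WT replicate 2 the log2 fold change was 4.77 (SE 0.28) and Alox15 was called higher (edgeR adjusted p = 0.00500), in a fit that called 5.87% of all genes, while without WT replicate 3 it was 2.97 (SE 0.76, adjusted p = 0.130). The ratio of Alox15 to Alox5 per kilobase was 0.117, 0.738 and 0.790 in WT and 1.67, 1.49 and 1.29 in Nfkb2-/- libraries, so that Alox15 was the less abundant lipoxygenase message in each WT library and the more abundant in each Nfkb2-/- library.

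Since Alox15 is known as an IL-4 target and the cultures received IL-4, a list of 9 IL-4 response markers was set beside it. Their summed level was 1147 to 2168 CPM in WT and 5491 to 6627 CPM in Nfkb2-/- BMDCs. Most of the sum in Nfkb2-/- came from Chil3 and Ccl17, the latter at 2357 to 2472 CPM. The chemokine gene Ccl17 was called higher (log2 fold change 2.92, edgeR adjusted p = 0.0307), and 5 of the 9, Ccl17, Chil3, Mgl2, Cish and Clec10a, were higher in each Nfkb2-/- library than in any WT library, beside 12.7% of all genes. Chil3, a chitinase-like protein gene, was at 539 to 1151 CPM in WT and 2188 to 3072 CPM in Nfkb2-/- (adjusted p = 0.0879), and the lectin gene Mgl2 at 37.7 to 299 CPM and 599 to 703 CPM (adjusted p = 0.162). Retnla resembled Alox15 in its WT libraries, at 0.0474, 21.7 and 0 CPM in WT replicates 1, 2 and 3 and at 16.4 to 30.6 CPM in Nfkb2-/-. The other 4 of the 9, Retnla, Arg1, Mrc1 and Socs1, overlapped between the genotypes. Mrc1 had a mean of 174 CPM in WT and 159 CPM in Nfkb2-/- (log2 fold change -0.13, edgeR adjusted p = 0.937), the only negative one in the list. Eosinophils express Alox15 as well. The 7 eosinophil markers summed to 33.8 to 280 CPM in WT and 197 to 246 CPM in Nfkb2-/-. Of them Siglecf was at 6.13 to 48.2 CPM in WT and 66.3 to 84.0 CPM in Nfkb2-/- (adjusted p = 0.240). Ear2 overlapped between the genotypes, as did the granule genes Epx and Prg2, at 1.65 to 10.5 CPM in WT and 4.83 to 9.82 CPM in Nfkb2-/-. All 7 had a positive log2 fold change, and 2 of the 7 were higher without overlap, beside 12.7% of all genes. These 2 were Siglecf and Il5ra, the latter low at 0.332 to 0.492 CPM in WT and 0.711 to 1.27 CPM in Nfkb2-/- (adjusted p = 0.270). The part of these cells or of the IL-4 response in the Alox15 values was not tested.

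Of the enzymes that act on leukotriene A, Lta4h (chromosome 10, 93453411 to 93484875) was at 61.3, 97.7 and 42.9 CPM in WT and at 119, 140 and 155 CPM in Nfkb2-/- BMDCs. The genotypes did not overlap (exact permutation p = 0.1), with a log2 fold change of 1.04 (SE 0.30, 95% interval 0.34 to 1.73). The edgeR adjusted p was 0.143 and the DESeq2 adjusted p 0.0200. Lta4h was called higher by edgeR without WT replicate 2 (log2 fold change 1.40, adjusted p = 0.0241), in a fit that called 5.87% of all genes. It was not called without WT replicate 3 (0.80, adjusted p = 0.176).

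Ltc4s (chromosome 11, 50236461 to 50238616) was at 2.49, 2.58 and 3.27 CPM in WT and at 2.16, 1.58 and 1.44 CPM in Nfkb2-/- BMDCs. It was lower in each Nfkb2-/- library than in any WT library (exact permutation p = 0.1), and was the only member whose highest library was WT replicate 3. The log2 fold change was -0.69 (SE 0.28, 95% interval -1.35 to -0.03, edgeR adjusted p = 0.273), and no alternative called it (-0.56 without WT replicate 3, adjusted p = 0.470). Its counts are uncertain, because the antisense gene model Gm26542 shares 268 exonic bases with it and had 171 to 321 counts per library, more than the 48 to 105 of Ltc4s itself. The ratio of Lta4h to Ltc4s per kilobase was 4.09, 6.28 and 2.18 in WT and 9.16, 14.7 and 17.9 in Nfkb2-/- libraries.

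**Figure D2:**
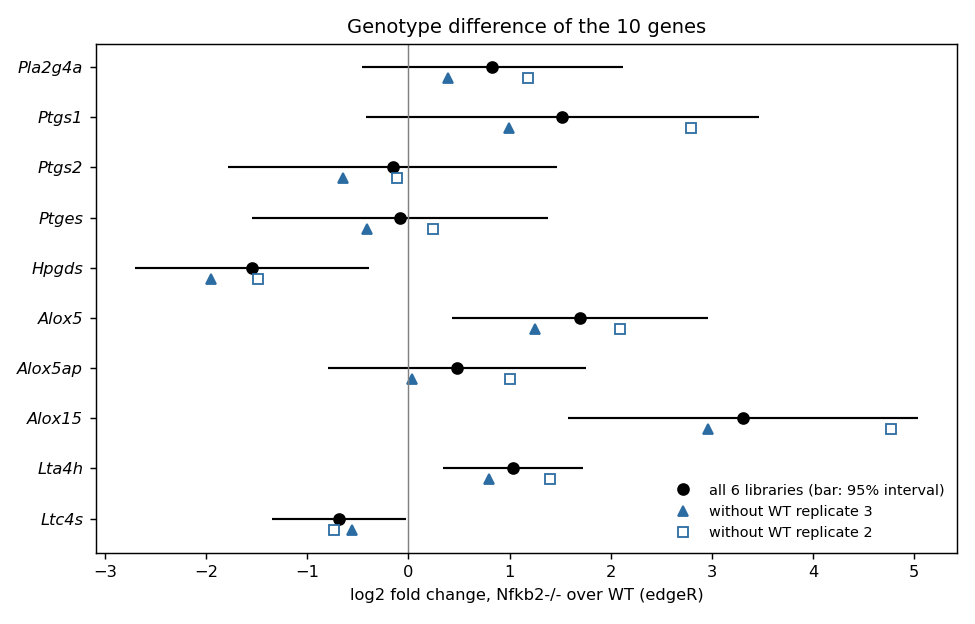
Log2 fold change (Nfkb2-/- over WT, edgeR) of the 10 genes, with the 95% interval of the fit of all 6 libraries as a bar, and the estimates without WT replicate 3 (triangles) and without WT replicate 2 (open squares). The intervals of Hpgds, Alox5, Alox15, Lta4h and Ltc4s lie to one side of 0, and none of the 10 genes passed the adjusted test in the fit of all 6 libraries.

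Levels of different members were compared as CPM per kilobase of exon. In WT BMDCs Alox5ap had the highest mean (17.5 ± 11.9 CPM per kb, SD, n = 3), followed by Lta4h (11.0 ± 4.57), Ptgs1 (6.92 ± 7.36), Hpgds (3.84 ± 2.40), Alox5 (3.41 ± 2.21), Ltc4s (2.74 ± 0.419), Pla2g4a (1.87 ± 1.18), Alox15 (1.66 ± 1.83), Ptgs2 (0.705 ± 0.563) and Ptges (0.234 ± 0.110). All 9 pairs of neighbours in this order overlapped over the 3 libraries. In Nfkb2-/- BMDCs Alox5ap (24.4 ± 1.998 CPM per kb), Lta4h (22.6 ± 2.98) and Ptgs1 (19.9 ± 1.40) again came first. Alox15 came next at 16.4 ± 2.31 CPM per kb, up from the eighth place to the fourth, ahead of Alox5 (11.0 ± 0.562), and Hpgds (1.32 ± 0.180) moved from the fourth place to the eighth. Between them stood Pla2g4a (3.33 ± 0.941) and Ltc4s (1.70 ± 0.374), and Ptgs2 and Ptges came last at 0.639 ± 0.187 and 0.223 ± 0.1395. Of the 9 pairs of neighbours 4 overlapped, so that Alox15 and Alox5, for example, were separated in all 3 Nfkb2-/- libraries.

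**Figure D3:**
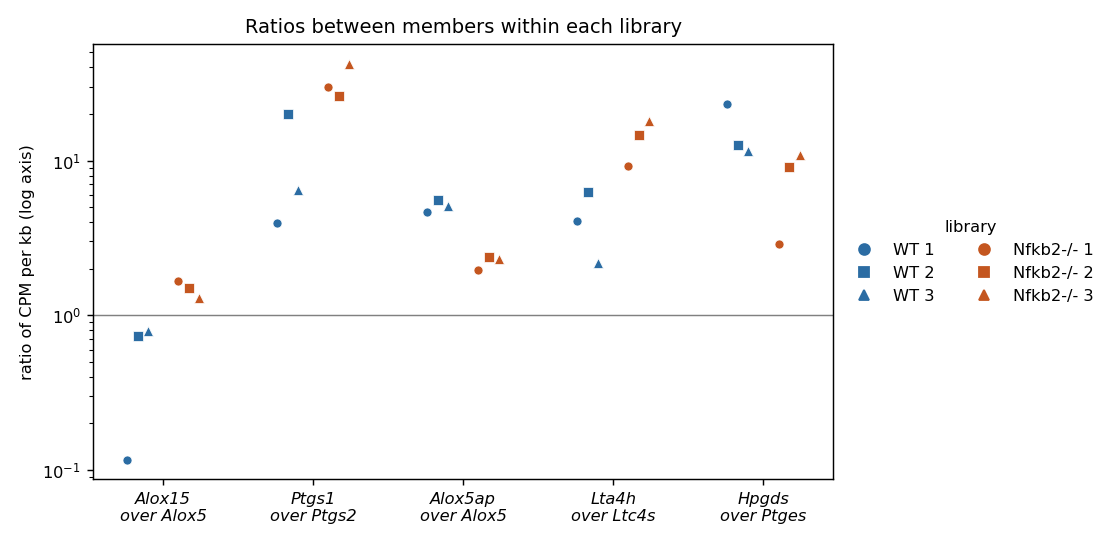
Ratios of CPM per kb between members within each library, on a log axis, with WT libraries in blue and Nfkb2-/- libraries in orange and the marker shape giving the replicate. None of the 5 ratios overlapped between the genotypes, and that of Alox15 to Alox5 was below 1 in all WT and above 1 in all Nfkb2-/- libraries. The pairs were chosen after the values were seen.

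The ratios use values of 1 library at a time, so that library size cancels out. Their pairs were chosen after the values were seen, and they carry no test. The ratio of Hpgds to Ptges, the synthases of prostaglandin D and E, was 23.4, 12.6 and 11.4 in WT and 2.90, 9.14 and 10.9 in Nfkb2-/- libraries. It rested on few Ptges counts, and WT replicate 3 and Nfkb2-/- replicate 3 lay next to each other. The ratio of Hpgds to Tbxas1, the thromboxane synthase gene, was 0.769, 0.207 and 0.847 in WT and 0.0552, 0.0704 and 0.0755 in Nfkb2-/- libraries, which did not overlap.

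WT replicate 3 moved with most of the members. It was the lowest of the 6 libraries for 7 of the 10, where it was the lowest for 25.9% of the 15316 genes whose mean reached 1 CPM, and the lowest of the WT libraries for 8 of the 10. Against the mean of the log2 CPM of WT replicates 1 and 2, the median log2 difference of the members in WT replicate 3 was -2.10, and that of all genes 0.01. On that scale, a difference below -1 was found for 7 of the 10 members and for 10.8% of all genes. Ltc4s was higher there, and Alox15 lay between the other WT libraries. The macrophage markers went the same way. They summed to 864, 983 and 146 CPM in WT replicates 1, 2 and 3 and to 536 to 682 CPM in the Nfkb2-/- libraries, and 9 of the 10 were lowest in WT replicate 3, among them Csf1r at 239, 250 and 37.2 CPM, C1qb at 164, 215 and 22.8 CPM and Adgre1 (F4/80) at 138, 159 and 20.3 CPM. The exception, Apoe, was lower in each Nfkb2-/- library than in any WT library, beside 12.0% of all genes. It was at 82.3, 56.5 and 3.68 CPM in WT and 0.725 to 2.25 CPM in Nfkb2-/- (log2 fold change -5.21, edgeR adjusted p = 0.0770). Without WT replicate 3 it was called lower (-5.76, adjusted p = 0.0172), in a fit that called 1.27% of all genes. The other 9 overlapped between the genotypes. None of the 10 macrophage markers was at 0 counts. Mature DC markers went the other way, with 7 of 8 highest in WT replicate 3 and sums of 12010, 8791 and 17380 CPM in WT against 8083 to 8743 CPM in Nfkb2-/-. Ccl22 alone made up 5357 to 10730 CPM of these sums. Among these markers, Ccr7 was at 1149, 640 and 1897 CPM in WT and 596 to 673 CPM in Nfkb2-/-. Il12b, a cytokine subunit gene, fell by 3.09 on the log2 scale in Nfkb2-/- (edgeR adjusted p = 0.0489), a call lost without WT replicate 3 (-2.62, adjusted p = 0.0622). Without overlap between the genotypes, 4 of the 8 were lower in Nfkb2-/- (Il12b, Fscn1, Cd83 and Cd40), beside 12.0% of all genes. The 1 that was higher, beside 12.7%, was Cd86, at 292 to 543 CPM in WT and 575 to 640 CPM in Nfkb2-/- (log2 fold change 0.58, edgeR adjusted p = 0.284). Cd80 overlapped (log2 fold change 0.02). The part of these cells in the members' values was not tested.

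**Figure D4:**
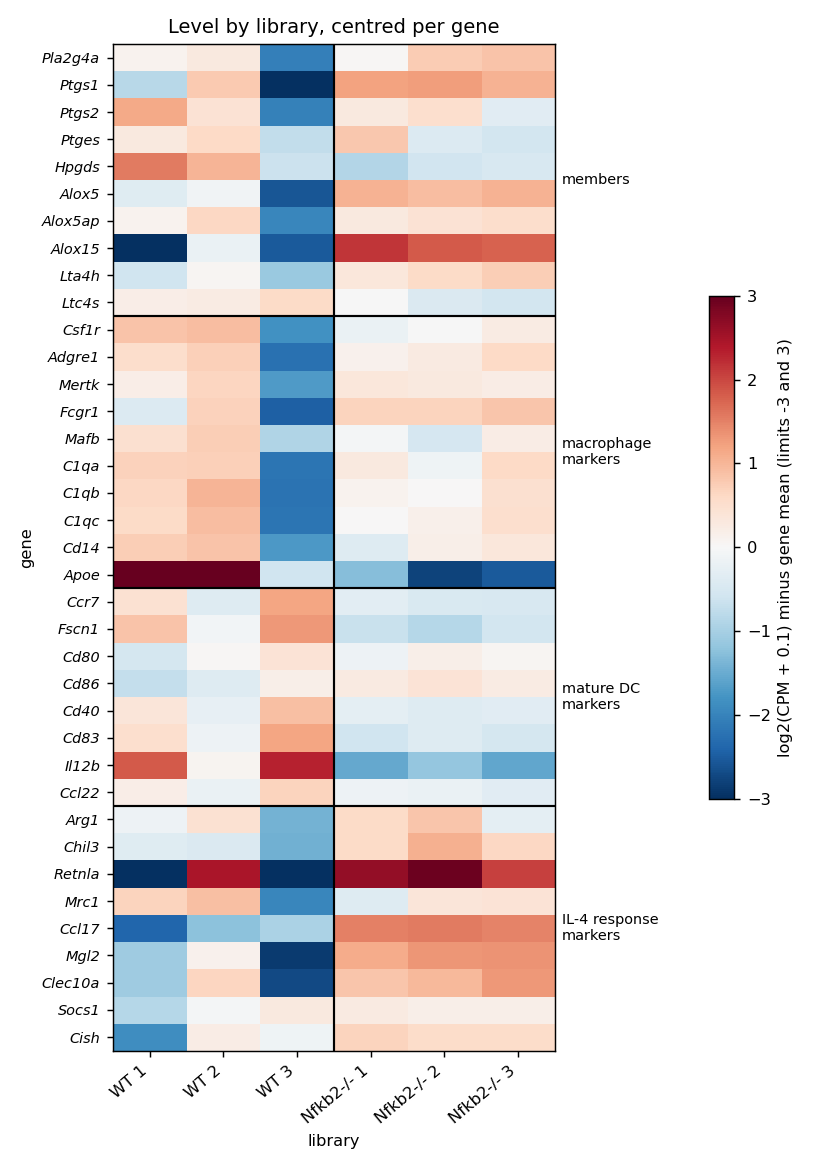
Levels of the 10 members and of macrophage, mature DC and IL-4 response markers in each library, as log2(CPM + 0.1) minus the mean of the gene over the 6 libraries, with colour limits at -3 and 3. WT replicate 3 is blue for 9 of the 10 members and for the macrophage markers and red for most of the mature DC markers, and the 3 Nfkb2-/- libraries resemble each other.

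Other cell types were represented by fewer counts. The 10 neutrophil markers summed to 84.3 to 231 CPM in WT and 119 to 126 CPM in Nfkb2-/- libraries, mostly from S100a8 (49.6 to 98.8 CPM in all libraries) and Ngp, while Elane stayed at or below 0.414 CPM. Of the 9 tested, 7 had a negative log2 fold change and 2 a positive one, and all 9 overlapped between the genotypes. Ngp was at 18.0 to 80.5 CPM in WT and 13.1 to 21.6 CPM in Nfkb2-/- (log2 fold change -1.81, edgeR adjusted p = 0.147). Without WT replicate 3, edgeR called 2 neutrophil markers lower, Ngp (-2.23, adjusted p = 0.0265) and Ltf (-2.04, adjusted p = 0.0348), beside 1.27% of all genes. The 6 platelet and megakaryocyte markers, relevant to Ptgs1 and Tbxas1, summed to 4.78 to 13.4 CPM in WT and 7.73 to 13.3 CPM in Nfkb2-/- libraries. They overlapped between the genotypes, and Ppbp, the most abundant of them, reached 5.79 CPM. The 8 DC markers summed to 4874 to 8396 CPM in WT and 6741 to 7658 CPM in Nfkb2-/-. Of these, Itgax was called higher in Nfkb2-/- BMDCs (log2 fold change 1.99, edgeR adjusted p = 0.0414), and the class II genes Cd74 and H2-Aa overlapped between the genotypes. Zbtb46 went the other way from Itgax, at 151 to 218 CPM in WT and 115 to 136 CPM in Nfkb2-/- (log2 fold change -0.54, edgeR adjusted p = 0.192). Without overlap between the genotypes, 1 of the 8 was higher and 1 lower, beside 12.7% and 12.0% of all genes.

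Genes whose values over the 6 libraries were most like those of a member were sought for the 3 members that varied most, by the root mean square difference of centred log2 CPM among 15315 genes. For Alox15 these were Klk2-ps (0.245) and Gm44226 (0.311), both of lower abundance. Klk2-ps was at 0.285, 2.98 and 0.344 CPM in WT and 9.07, 8.67 and 9.93 CPM in Nfkb2-/- libraries. For Ptgs1 they were the cell cycle phosphatase gene Cdc25c (0.131) and the growth factor gene Hbegf (0.178), the latter at 1.30, 5.29 and 0.207 CPM in WT and 4.42 to 6.59 CPM in Nfkb2-/-. For Alox5 they were the transporter gene Slc6a12 (0.114) and the kinase gene Pask (0.158), at 0.413 to 2.92 CPM in WT and 6.03 to 6.97 CPM in Nfkb2-/-. None of these 6 genes was called by edgeR (adjusted p between 0.126 and 0.483).

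The other genes of the pathway were taken from 7 lists of 51 genes, of which 44 were tested and 11 of these were under 1 CPM in both genotypes. None was called by edgeR. At an unadjusted p under 0.05 there were 4 higher and 2 lower of the 44, beside 17.1% of all genes. DESeq2 called 3 of the 33 to which it gave an adjusted p, Pla2g15 as higher and Ptger3 and Ptger4 as lower, beside 10.7% of all genes. The genotypes did not overlap for 4 of the 44 with higher and 2 with lower values in Nfkb2-/- BMDCs, beside 12.7% and 12.0% of all genes. The median log2 fold change of the 44 was 0.41. Many of the low genes had their highest level in Nfkb2-/- replicate 1, the library with counts on the most genes, as for the 4 other lipoxygenases, Alox12, Alox12b, Alox8 and Aloxe3, which were at 1.42 to 2.78 CPM there and at or below 0.584 CPM in the other 5 libraries. Alox5 and Alox15 were thus the lipoxygenase genes with more than a trace of message in the other libraries.

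Among the other phospholipases A2, the lysosomal enzyme gene Pla2g15 was at 46.8, 64.0 and 65.0 CPM in WT and 107, 100 and 94.7 CPM in Nfkb2-/- BMDCs. The log2 fold change was 0.78 (SE 0.17, edgeR adjusted p = 0.0826). WT replicate 3 was not low for this gene. Pla2g6 (a calcium-independent enzyme) and Pla2g12a (a secreted one) overlapped between the genotypes, with means of 8.99 and 5.18 CPM in WT and 11.5 and 6.30 CPM in Nfkb2-/-.

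Among prostanoid synthases, Tbxas1, the thromboxane synthase gene, was like Ptgs1 highest in replicate 2 and lowest in replicate 3 of WT, at 71.7, 183 and 13.97 CPM, and was at 183, 178 and 175 CPM in Nfkb2-/- BMDCs, with overlap at WT replicate 2 (log2 fold change 1.001, SE 0.73, edgeR adjusted p = 0.531, and 0.50 without WT replicate 3, adjusted p = 0.579). Ptges2, a membrane-associated prostaglandin E synthase gene, was at 2.40 to 3.65 CPM in WT and 4.49 to 7.95 CPM in Nfkb2-/- (log2 fold change 0.88, adjusted p = 0.198). The cytosolic Ptges3, which also encodes the co-chaperone p23, was at 127 to 160 CPM in WT and 94.4 to 216 CPM in Nfkb2-/-, and Akr1b3, whose product can make prostaglandin F, overlapped as well.

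Among the enzymes of cysteinyl leukotrienes, Mgst3 was at 2.62 to 3.60 CPM in WT and 4.84 to 5.52 CPM in Nfkb2-/- BMDCs (log2 fold change 0.67, edgeR adjusted p = 0.176) where Ltc4s had lower values. Dpep2 and Ggt5, which act on the peptide part of these leukotrienes, overlapped between the genotypes at means of 3.53 to 5.65 CPM. For export and breakdown, the leukotriene transporter gene Abcc1 differed little between the genotypes, at 170 ± 12.1 CPM in WT and 164 ± 3.96 CPM in Nfkb2-/- (SD, n = 3; log2 fold change -0.05, SE 0.13, edgeR adjusted p = 0.876). Abcc4, which exports prostaglandins, and Cyp4f13 overlapped likewise.

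Among the receptors, the prostaglandin E receptor gene Ptger4 was the most abundant, at 332, 297 and 518 CPM in WT and 196, 223 and 233 CPM in Nfkb2-/- BMDCs. It was highest in WT replicate 3, unlike most of the synthesis genes, and its log2 fold change was -0.81 (SE 0.23, edgeR adjusted p = 0.145), and -0.53 without that library (adjusted p = 0.165). Ptger3 was at 9.49, 5.01 and 2.34 CPM in WT and 1.80, 0.791 and 1.14 CPM in Nfkb2-/- (log2 fold change -2.17, SE 0.55, adjusted p = 0.113, and -2.54 without WT replicate 3, adjusted p = 0.0534). Both were lower in each Nfkb2-/- library than in any WT library, and the prostacyclin receptor gene Ptgir overlapped. Of the leukotriene receptors, the leukotriene B receptor gene Ltb4r1 was at 2.94, 6.86 and 0.620 CPM in WT and 10.9, 10.2 and 11.2 CPM in Nfkb2-/- (log2 fold change 1.63, SE 0.68, adjusted p = 0.280, and 1.14 without WT replicate 3, adjusted p = 0.184). The cysteinyl leukotriene receptor gene Cysltr1 was at 34.8, 62.3 and 6.50 CPM in WT and 58.0, 113 and 127 CPM in Nfkb2-/- (log2 fold change 1.52, adjusted p = 0.333, and 1.04 without WT replicate 3, adjusted p = 0.270), and Fpr2, whose product binds lipoxin and formyl peptides, overlapped at means of 6.63 and 8.83 CPM. These 3 receptors were lowest in WT replicate 3, as were Alox5 and Lta4h.

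**Figure D5:**
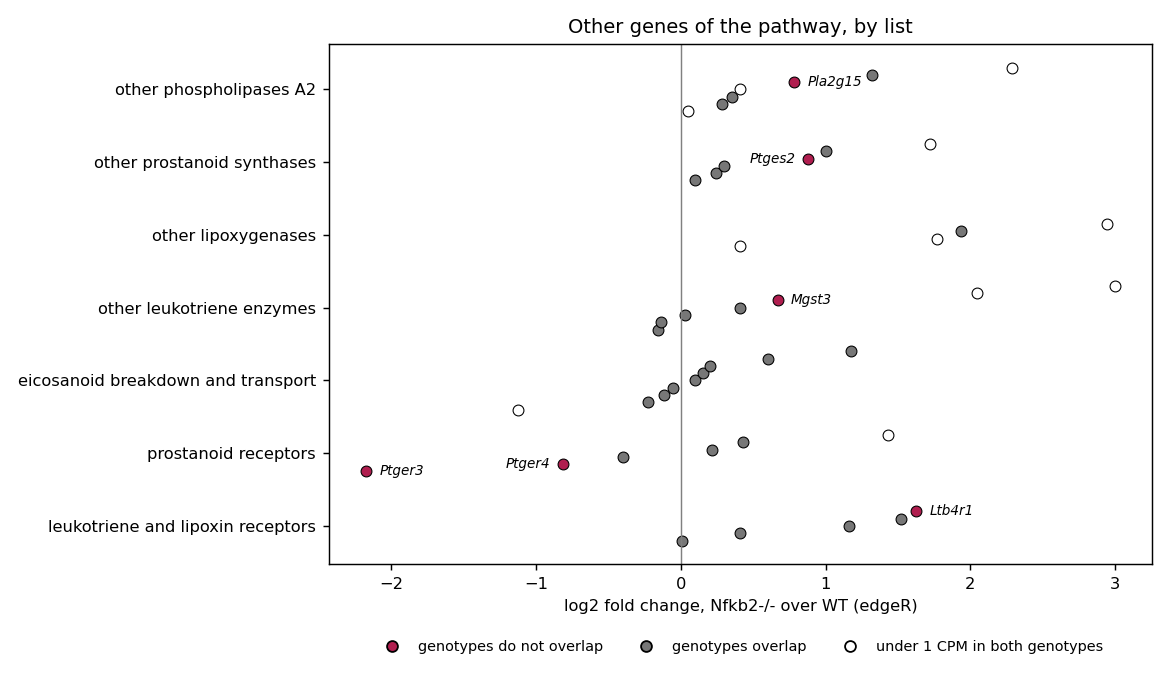
Log2 fold change (Nfkb2-/- over WT, edgeR) of the 44 tested genes in the 7 other lists of the pathway, with genes whose genotypes did not overlap in red and named, other genes in grey and genes under 1 CPM in both genotypes open. Among the named genes, Ptger3 and Ptger4 lie below 0, and none of the 44 passed the adjusted test.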

How the data were processed

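RNA-seq libraries of unstimulated BMDCs, 3 per genotype, were grouped by the sample labels. The authors deposited whole-number counts per Ensembl gene and library, without normalization. The submitters' processing notes name HISAT2, GRCm38 and mm10, and the counting tool and its strand setting are not given in the sources used here. Counts on IDs without a name in GENCODE M21 (GRCm38), 1.01% to 1.75% per library, stayed out of library sizes and tests, as did genes whose counts summed to under 50, which left 21849 genes. The genotypes were compared across all of them with edgeR 4.0.16 (TMM, glmQLFit, glmQLFTest, no covariates, R 4.3.3), the SE being the size of the log2 fold change divided by the square root of F. The common dispersion was 0.219. Intervals over libraries are 95% intervals from this fit. CPM per kb used exonic lengths from GENCODE.

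The 10 genes, all other gene lists and the naming rule were chosen with earlier results of these data known. Named were the 10 genes, Nfkb2, called genes and the up to 3 most abundant genes of each list, and the 2 genes most like each of the 3 most variable members. Others, such as genes named for lack of overlap or low level, and the ratios were chosen after their values were seen. Alternatives were DESeq2 1.42.0, limma 3.58.1 (voom), other size factors and filters, a block for the replicate number, leaving out each library and leaving out WT replicate 3 and Nfkb2-/- replicate 1 together, the last added after seeing the data. Tested on simulated counts of 20982 genes for this comparison, edgeR recovered 59 of 99 log2 changes of 2 and 76 of 99 of 3 (9 of 144 calls false), and DESeq2 recovered 73 and 88 (84 of 245 calls false). The simulated counts were drawn gene by gene, with changes only in genes above a count floor. They held no library that deviates across many genes at once, so these rates need not hold for the real libraries.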

Additional observations from a re-analysis of the deposited data

How the results depend on the processing

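The count of called genes over the whole table was 248 with edgeR (39.9% of them higher), 1878 with DESeq2 (945 higher, 933 lower), 488 with limma voom (245 higher, 243 lower), 397 with filterByExpr, 1625 with no filter, 459 with at least 10 counts in every library, 808 at an adjusted p under 0.1 and 908 with both deviant libraries (WT replicate 3 and Nfkb2-/- replicate 1) left out, an alternative added after seeing the data. It was 0 to 1248 with 1 library left out, at 0 without WT replicate 1 or any Nfkb2-/- replicate (2325 to 4088 genes at an unadjusted p under 0.05), 1248 without WT replicate 2 and 270 without WT replicate 3. With the replicate number as a block it was 0 (3331 at an unadjusted p under 0.05). Same-numbered libraries deviated together with r of 0.262, 0.148 and 0.0224, and differently numbered ones with r of -0.237 to 0.164. These values do not settle whether the numbers pair the samples, and the main fit did not pair them.

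Of the 10 members, DESeq2 called 4, limma voom 1 (Alox15), the fit with no filter 5 (Alox15, Alox5, Hpgds, Lta4h, Ptgs1), the limit of 0.1 1 (Alox15), the fit without both deviant libraries 2 (Alox5, Hpgds), and fits with 1 library left out 0 to 2. Of the other pathway genes, DESeq2 called 3, the fit with no filter 3 (Cysltr1, Ltb4r1, Ptger3), the fit without both deviant libraries 2 (Ptger3, Ptges3) and the limit of 0.1 1 (Pla2g15). Over all genes, DESeq2 called 10.7%, limma voom 2.23% and the fit with no filter 3.50%. The limit of 0.1 called 808 of 21849 genes, and the fit without both deviant libraries 908 of 18703. The fits that called a member with 1 library left out called 5.87% (without WT replicate 2) and 1.27% (without WT replicate 3). On the log2 scale, fits that called a member gave 3.29 (DESeq2), 3.94 (voom) and 3.22 (no filter) for Alox15, 1.68 (DESeq2), 1.61 (no filter) and 1.21 (both libraries out) for Alox5, -1.56, -1.61 and -1.87 for Hpgds in the same order, 1.02 (DESeq2) and 0.98 (no filter) for Lta4h and 1.44 (no filter) for Ptgs1. With 1 library left out these ranged from 2.87 to 4.77 for Alox15, 1.25 to 2.10 for Alox5, -1.95 to -1.05 for Hpgds and 0.80 to 1.40 for Lta4h. The sign turned for Ptgs2 with voom (0.14), the replicate block (0.26) and a library left out (-0.65 to 0.54), and for Ptges with total counts (0.0351) and a library left out (-0.74 to 0.24). The other 8 members kept their direction in all 15 alternatives. Total counts in place of TMM moved the median of all genes from 0.08 to 0.16. The cause of these changes was not tested. At the depth of Ptges and Ltc4s, counting error adds to the spread between libraries.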
